A study of Mus musculus with 135 samples.

Results

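The cerebral cortex and the hippocampus of untreated control mice that had not been exposed to social defeat were compared by bulk RNA sequencing, with both regions taken from the same mouse. The members were chosen from the labels alone: genotype AA, no stress exposure, no treatment, and a library of each region. This gave 22 libraries of 11 mice, out of 135 samples in the series, of which 134 had labels that gave a group. 1 further AA control mouse had a cortex library only and did not enter, and 1 library with conflicting tissue labels was left out. AA mice are Townes control mice, in which the mouse alpha and beta globin genes are replaced by human ones that encode normal adult hemoglobin. Their counterparts, SS mice, carry the sickle form of human beta globin. All mice were male. The AA and SS mice used here were not exposed to repeated social defeat and received no minocycline, and the labels give no age. In the study's methods the control mice of the first cohort were of the same age as the defeated ones, all adult, and the labels do not say which cohort a mouse belongs to. By the study's methods, control mice too went through object recognition and fear conditioning tests and were killed within days of them, so they were not free of handling or of other stressors. By label the globin replacement is shared by all libraries, although mouse 9631 had mouse globin transcripts, as given below. By label, then, the values describe a humanized line and not wild-type mice. Each library is a whole dissected region.

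Cortex and hippocampus are both parts of the forebrain mantle, and both are built from excitatory pyramidal neurons, a minority of inhibitory neurons, and glia. The cortex is layered, and its upper and deep layers hold neurons with distinct targets. The hippocampus has fields named CA1, CA2 and CA3, and the dentate gyrus, whose granule cells are added through adult life and feed the mossy fibre pathway to CA3. It is also known as a region rich in receptors for stress hormones and serotonin.

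The cortex libraries held between 21015849 and 52501167 reads on genes (median 35930083), and the hippocampus libraries between 19645225 and 62882249 (median 34353343). None of 6 technical measures differed between the regions in an exact permutation test over the 11 paired differences (two-sided, smallest adjusted p = 0.763). The mean share of mitochondrial counts was 5.34% ± 1.14 (SD, n = 11) in cortex and 5.17% ± 1.00 in hippocampus. The share of unmapped reads reached 41.9% in the hippocampus of mouse 9838 and 25.9% in the cortex of mouse 5845.

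The libraries of 2 mice went against their AA label in transcripts of red blood cells. Alas2, the first enzyme of heme synthesis in red cell precursors, was at 96.3 CPM (counts scaled to a common library size, with TMM factors) in cortex and 55.99 CPM in hippocampus of mouse 5844. In the other 20 AA libraries it lay between 1.73 and 10.7 CPM, and in the 14 SS control libraries between 43.7 and 130.8 CPM. Mouse 9631 had 38.2 and 31.9 CPM of Hbb-bs, a mouse beta globin gene, which was at no more than 0.147 CPM in the other 20 AA libraries. In the 14 SS control libraries Hbb-bs was at no more than 0.116 CPM, so for this gene mouse 9631 matched neither genotype. The main counts are therefore given with and without these mice.

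The tissue labels were checked against marker genes of each region. Prox1, the transcription factor that specifies dentate granule cells, was at 15.4, 18.3 and 20.9 CPM (lowest, median and highest of 11) in cortex and at 78.9, 97.2 and 172.9 CPM in hippocampus. Tbr1, a T-box factor of deep layer cortical neurons, was at 110.5, 140.5 and 158.3 CPM in cortex and at 33.6, 39.5 and 59.2 CPM in hippocampus. Neither gene's ranges overlapped, so all 22 libraries sat on the side of their label for both genes.

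A large part of the transcriptome differed between the regions. Of 17556 genes tested with edgeR's quasi-likelihood test, with mouse as a block, 4978 (28.4%) were higher in hippocampus and 4323 (24.6%) higher in cortex at a Benjamini-Hochberg adjusted p under 0.05. By more than 1.5-fold (glmTreat), 1048 genes (5.97%) were higher in hippocampus and 941 (5.36%) higher in cortex. Of these 1989 genes, 1816 (91.3%) moved in the same direction in all 11 mice. For 1784 genes (10.2% of those tested) the 11 hippocampus values and the 11 cortex values did not overlap. Without mice 5844 and 9631 the 4 counts were 4411, 4251, 969 and 901. The median log2 fold change over all genes tested was 0.02. Of the variance of log2 CPM over these genes, 35.24% lay between regions, 52.71% between mice and 12.05% in the remainder.

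The 12 genes with the largest difference toward hippocampus, among those of moderate or high level and the same direction in every mouse, were led by Fibcd1, Npy2r and Il16. Fibcd1, a transmembrane receptor that binds acetylated sugars and a marker of CA1 (GRCm39 chromosome 2, 31702948 to 31736233, minus strand), was at 5.62, 7.50 and 11.6 CPM in cortex and 126.6, 151.2 and 218.8 CPM in hippocampus. Its log2 fold change, hippocampus over cortex, was 4.33 (SE 0.09, edgeR adjusted p = 9.37e-15). Npy2r, the Y2 receptor of neuropeptide Y (chromosome 3, 82444312 to 82455409, minus strand), had medians of 2.90 CPM in cortex and 57.6 CPM in hippocampus, a log2 fold change of 4.23 (SE 0.07, edgeR adjusted p = 1.56e-15). Shisa6, an auxiliary subunit of AMPA-type glutamate receptors, was at 11.7, 13.6 and 15.96 CPM in cortex and 133.3, 199.4 and 209.1 CPM in hippocampus. In each of these genes all 11 hippocampus values lay above all 11 cortex values.

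Cabp7, a calcium-binding protein of the calneuron family, was at 24.04, 30 and 38.5 CPM in cortex and 243.8, 299.9 and 441.6 CPM in hippocampus (log2 fold change 3.38, SE 0.07, edgeR adjusted p = 9.37e-15). 32.7% of its exonic length overlaps Zmat5 on the other strand, and the strand setting of the counting is not given in the sources used here, so its value is uncertain. Il16, which encodes the precursor of interleukin 16 (21.2% of its exons overlap other genes on the opposite strand), had a log2 fold change of 4.13 (SE 0.10, edgeR adjusted p = 5.59e-14). Rasd1, a Ras-like protein first found as induced by the glucocorticoid dexamethasone, had 3.32 (SE 0.07), and Slc29a4, the plasma membrane monoamine transporter, 3.17 (SE 0.09). The others were Tspan18, a tetraspanin (3.74), Lrrc10b, a leucine-rich repeat protein (3.62), Kl, which encodes klotho (3.42), Slc9a2, a sodium/proton exchanger (3.40), and Thsd4, a thrombospondin-domain protein of the extracellular matrix (3.15), all on the log2 scale. Kl had the largest SE of the 12 (0.23): mice 9838 and 9839 stood at 118.3 and 135.9 CPM in hippocampus, against 24.2 to 38.5 CPM in the other mice.

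The 12 genes with the largest difference toward cortex were led by Igfn1, which encodes a protein of immunoglobulin and fibronectin domains (chromosome 1, 135881316 to 135934080, minus strand). It was at 23.7, 60.9 and 86.3 CPM in cortex and 0.385, 1.08 and 3.70 CPM in hippocampus, a log2 fold change of -5.23 (SE 0.22, edgeR adjusted p = 1.73e-11). Rasgef1c, an exchange factor for Ras-family GTPases, followed with medians of 31.7 CPM in cortex and 2.57 CPM in hippocampus (log2 fold change -3.62, SE 0.10, edgeR adjusted p = 1.27e-13). Its relative Rasgef1b was also among the 12 (-2.73, SE 0.11). Igfn1 ran from 23.7 to 86.3 CPM in cortex, a wider range than that of Rasgef1c (25.7 to 40.7 CPM).

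Cckbr, the brain receptor of cholecystokinin, was at 62.8, 67.9 and 76.0 CPM in cortex and 5.33, 8.15 and 14.4 CPM in hippocampus (log2 fold change -3.13, SE 0.11, edgeR adjusted p = 2.05e-12). Adra1b, the alpha-1B adrenergic receptor, had medians of 28.3 and 3.58 CPM (-2.93, SE 0.11). Sema3a, a secreted axon guidance protein, had -2.90 (SE 0.14), and Kcnh4, a voltage-gated potassium channel, had -2.77 (SE 0.10). Cobl, an actin nucleator, had -2.57 (SE 0.13), and Lamp5, which marks a set of inhibitory neurons, had -2.55 (SE 0.05). Bmp3, a growth factor (-2.59), Sowahb, an ankyrin repeat protein (-2.92), and Exph5, an effector of the vesicle GTPase Rab27 (-2.50), completed the group. In all 24 genes the cortex and hippocampus ranges did not overlap.

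**Figure D1:**
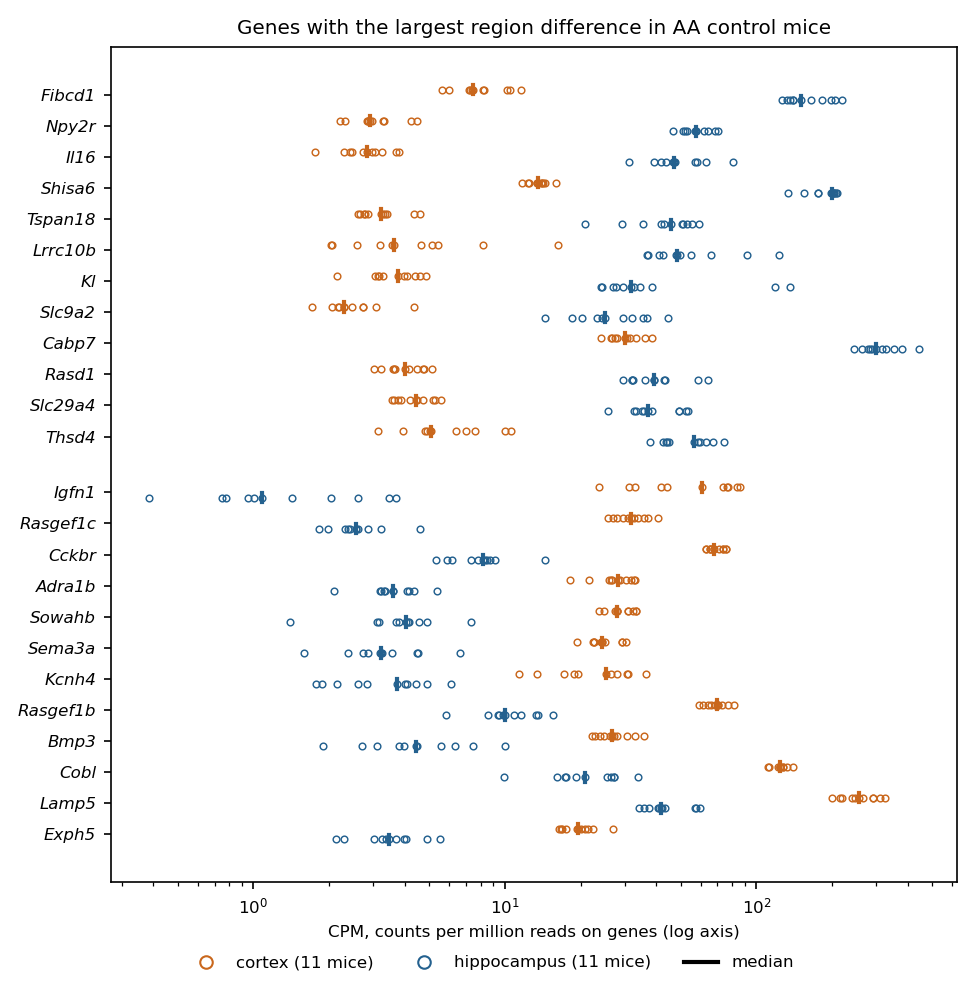
CPM of the 24 genes with the largest region difference, on a log axis, with 1 circle per library (orange cortex, blue hippocampus, 11 mice each) and a bar at the median. The colours are separated in every row, with the narrowest gap for Kcnh4 (11.4 CPM lowest in cortex, 6.13 CPM highest in hippocampus) and the widest for Fibcd1 (126.6 and 11.6 CPM).

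Promoters of the first 2 genes in each direction, and of Prox1 and Tbr1, were searched for 3 motifs on both strands: TGACGTCA (the cyclic AMP response element), GGACAGC (a core of the element bound by the neuronal repressor REST) and CAGCTG (an E-box, read by basic helix-loop-helix factors). These occur in 1.79%, 6.56% and 16.3% of the 32851 promoters of the same length in the RefSeq table (GRCm38.p6), which run from 250 bases before to 50 after a gene's start. All 6 genes had an entry in the table. The only matches were an E-box in the promoters of Npy2r and Igfn1, one gene of each direction, which are shown for that reason, with the E-box in capitals. The Npy2r promoter lies at chr3:82455343-82455642 and the Igfn1 promoter at chr1:135934031-135934330 (GRCm39, placed by exact match, both on the minus strand, 5′ to 3′). Fibcd1, Rasgef1c, Prox1 and Tbr1 held none of these letters in their windows.
Npy2r: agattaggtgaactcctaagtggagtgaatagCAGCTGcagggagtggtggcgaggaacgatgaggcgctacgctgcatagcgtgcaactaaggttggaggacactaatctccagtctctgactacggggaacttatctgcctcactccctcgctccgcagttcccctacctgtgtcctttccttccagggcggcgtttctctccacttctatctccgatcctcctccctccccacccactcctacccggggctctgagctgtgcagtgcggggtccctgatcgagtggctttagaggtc
Igfn1: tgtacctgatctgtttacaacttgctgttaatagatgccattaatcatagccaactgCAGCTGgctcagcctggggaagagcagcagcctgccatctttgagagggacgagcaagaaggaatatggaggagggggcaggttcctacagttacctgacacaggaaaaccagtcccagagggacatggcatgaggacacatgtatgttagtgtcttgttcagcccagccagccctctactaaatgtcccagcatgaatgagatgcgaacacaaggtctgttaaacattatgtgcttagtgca

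Marker genes of hippocampal neurons were mostly higher in hippocampus. This and each later count of list members stands against 28.4% of all genes higher in hippocampus and 24.6% in cortex, and each median against 0.02. All 10 listed dentate granule cell genes were tested, and 9 were higher in hippocampus, with a median log2 fold change of 2.58 over the list. Dsp, which encodes the junction protein desmoplakin, was at 0.155, 0.368 and 1.97 CPM in cortex and 46.9, 60.97 and 129.8 CPM in hippocampus (log2 fold change 6.73, SE 0.30, edgeR adjusted p = 2.77e-11). Lct, which encodes lactase, had 4.77 (SE 0.25), and Tdo2, an enzyme of tryptophan breakdown, had 4.29 (SE 0.13). Npnt, an extracellular matrix protein, was the exception at -0.18 (SE 0.11, edgeR adjusted p = 0.19), with 4 of 11 mice higher in hippocampus; without mice 5844 and 9631 it was called higher in cortex.

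Of 5 CA1 genes, 4 were higher in hippocampus and Mpped1 was lower (-0.25, SE 0.08, edgeR adjusted p = 0.0204), and the median was 0.81. Spink8, a protease inhibitor of CA1 neurons, had a log2 fold change of 4.47 (SE 0.10). Wfs1, the endoplasmic reticulum protein wolframin, also lies in upper cortical neurons and differed less, at 0.74 (SE 0.13), with overlapping ranges. All 5 CA2 genes were higher in hippocampus (median 1.4), among them Amigo2, an adhesion protein (1.95, SE 0.09), and Rgs14, a regulator of G-protein signalling (1.4, SE 0.06).

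Of 6 CA3 genes, 5 were higher in hippocampus and 1 in cortex, with a median of 0.80. Iyd, an iodotyrosine deiodinase, went from a median of 0.222 to 4.26 CPM (log2 fold change 4.30, SE 0.23), and Grik4, a kainate receptor subunit, from 28.4 to 60.4 CPM (1.07, SE 0.07). Coch, which encodes cochlin, went the other way, from 26.4 CPM in cortex to 4.41 CPM in hippocampus (-2.12, SE 0.19, edgeR adjusted p = 8.39e-08), with no overlap. Of 4 mossy cell genes, 3 were higher in hippocampus (median 0.43), led by Calb2, the calcium-binding protein calretinin (1.78, SE 0.16), while Drd2 had -0.20 (SE 0.30, edgeR adjusted p = 0.608). In bulk tissue, fewer cells of a type and less RNA per cell cannot be told apart.

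Genes of newborn neurons and dividing cells went both ways. Of 13 tested members, 7 were higher in hippocampus (6 without mice 5844 and 9631) and 3 in cortex, with a median of 0.36. Neurod1, a transcription factor of granule cell differentiation, was at 6.51, 7.78 and 10.7 CPM in cortex and 12.7, 16.3 and 21.6 CPM in hippocampus (log2 fold change 1.07, SE 0.07). Dcx, which encodes the microtubule protein doublecortin of migrating young neurons, was lower in hippocampus in all 11 mice, at 38.3 CPM in cortex and 16.1 CPM in hippocampus (medians, log2 fold change -1.05, SE 0.08, edgeR adjusted p = 1.25e-08).

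The division genes were also higher in cortex. Mki67, present only in cycling cells, had medians of 0.887 and 0.572 CPM (log2 fold change -1.16, SE 0.18, edgeR adjusted p = 5.19e-05), and Top2a, a topoisomerase of dividing cells, had -0.78 (SE 0.21). Mki67 was lower in hippocampus in all 11 mice and was highest in the cortex of mice 5844 (3.02 CPM), 9644 (3.004 CPM) and 9631 (2.14 CPM). In the 3 highest cortex libraries the summed CPM of the striatal genes described below was also high, at 555.0, 358.9 and 403.1 against a median of 274.6. In a fit with the striatal and choroid plexus levels as terms, described with those tissues, the calls of Mki67 (0.55, edgeR adjusted p = 0.675), Top2a and Dcx were lost. Hippocampal calls of the list of newborn neuron and division genes went from 7 to 1 in the same fit.

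Layer genes of the cortex were mostly higher in cortex. Of 9 upper layer genes, 7 were higher in cortex and 1 in hippocampus (median -0.98). Rspo1, a secreted enhancer of Wnt signalling, was at 12.8, 14.6 and 19.97 CPM in cortex and 0.912, 1.65 and 3.18 CPM in hippocampus (log2 fold change -3.20, SE 0.17, edgeR adjusted p = 2.00e-10). Cux2 and Cux1, homeodomain factors of upper layer neurons, had -1.77 (SE 0.10) and -0.98 (SE 0.06), and neither overlapped. Scnn1a, a sodium channel subunit of layer 4 driver lines, was the 1 higher in hippocampus, at 0.35 (SE 0.14, edgeR adjusted p = 0.0431), a call lost without mice 5844 and 9631.

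Of 13 deep layer genes analysed, 10 were higher in cortex and 1 in hippocampus (median -0.87). Foxp2, a forkhead factor of layer 6 neurons, was at 8.94, 11.2 and 17.8 CPM in cortex and 0.738, 1.13 and 2.43 CPM in hippocampus (log2 fold change -3.22, SE 0.16, edgeR adjusted p = 1.19e-10). Fezf2, which specifies neurons that project out of the cortex, differed little (-0.34, SE 0.12, edgeR adjusted p = 0.0323), and Etv1 and Parm1, layer 5 genes, had 0.03 (SE 0.15) and 0.08 (SE 0.09). Nr4a2, an orphan nuclear receptor of the deepest layer, was higher in hippocampus, with medians of 13.2 and 47.7 CPM (1.59, SE 0.12, edgeR adjusted p = 1.26e-08).

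Transcription factors that pattern the forebrain divided evenly. Of 25 factors, 12 were higher in each region (11 in hippocampus without mice 5844 and 9631) and the median was 0.01, but 17 of 25 had ranges that did not overlap, against 10.2% of all genes. On the hippocampal side, Lhx9, a LIM homeodomain factor, had medians of 0.320 and 15.4 CPM (log2 fold change 5.52, SE 0.13, edgeR adjusted p = 2.74e-14). Zbtb20, a zinc finger repressor required for hippocampal fields, had 52.6 and 229.5 CPM (2.12, SE 0.11), and Nr2f2 (COUP-TFII) had 1.90 (SE 0.15).

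On the cortical side, Mef2c, an activity-regulated factor of neurons, had -2.32 (SE 0.11), with medians of 660.8 CPM in cortex and 131.1 CPM in hippocampus. Tbr1, whose levels are given above, had -1.75 (SE 0.07, edgeR adjusted p = 1.20e-11). Close relatives stood on opposite sides. Emx1 had -0.84 (SE 0.07) and Emx2 0.53 (SE 0.07), Nr2f1 had -0.29 (SE 0.04) beside 1.90 for Nr2f2, and Lmo4 had -0.85 (SE 0.05) beside 1.04 (SE 0.07) for Lmo3. Pax6, a factor of progenitors and glia, had 0.01 (SE 0.09).

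**Figure D2:**
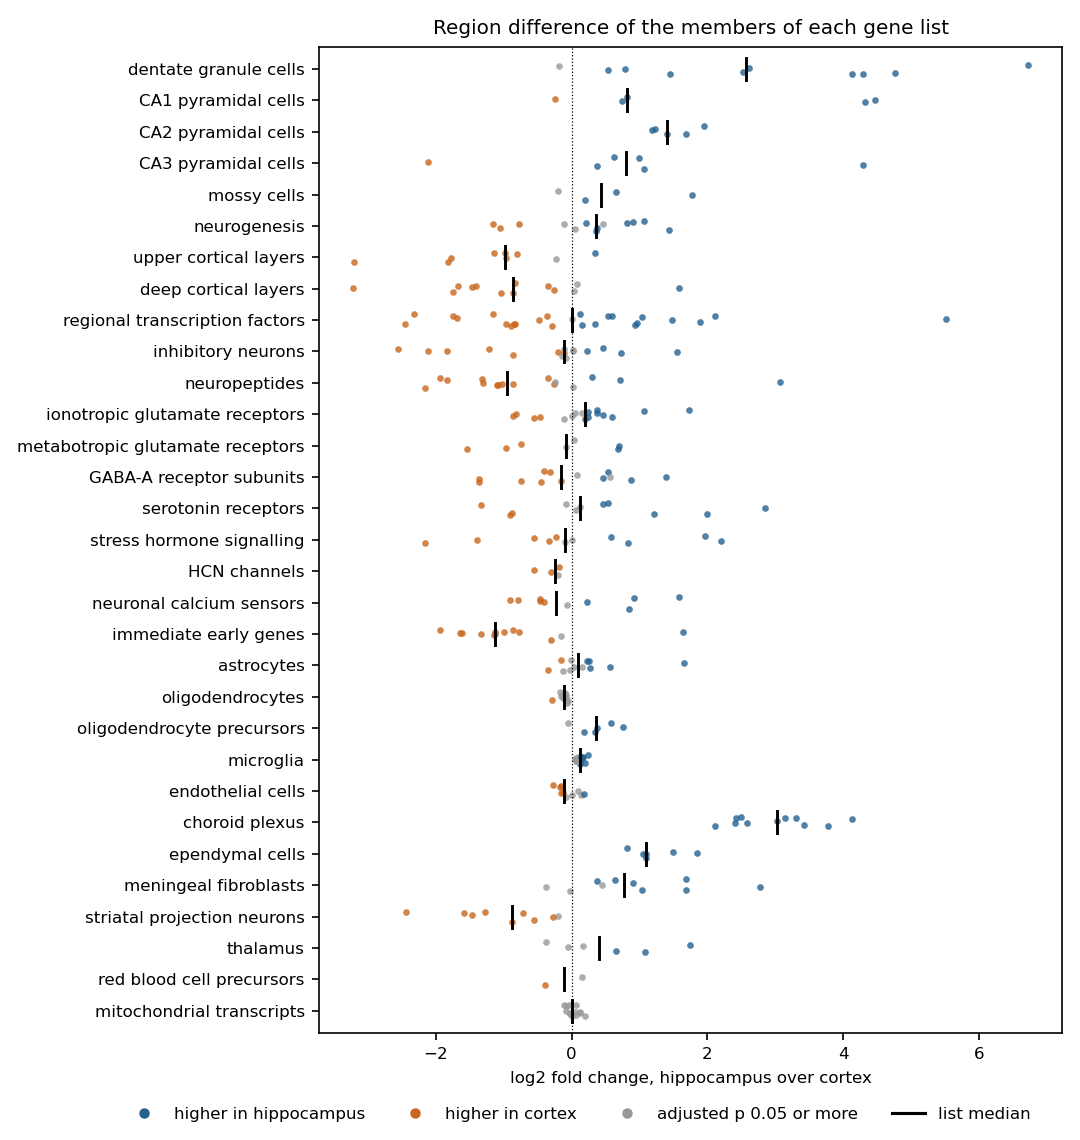
Log2 fold change, hippocampus over cortex, of every tested member of each gene list (blue called higher in hippocampus, orange called higher in cortex, grey adjusted p of 0.05 or more, black bar the list median). Medians lie furthest right for choroid plexus (3.03) and dentate granule cells (2.58), and furthest left for immediate early genes (-1.13) and upper cortical layers (-0.98), while oligodendrocyte and mitochondrial genes crowd around 0.

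Gad1 and Gad2, the enzymes that make GABA, had log2 fold changes of -0.11 (SE 0.04) and 0.02 (SE 0.05). Of 16 genes of inhibitory neurons, 4 were higher in hippocampus and 7 in cortex (median -0.11), against 28.4% and 24.6% of all genes, so the hippocampal count was no higher than the background. Pvalb, which marks fast-spiking basket cells, was higher in cortex in all 11 mice, at 38.2, 59.2 and 97.1 CPM against 17.9, 23.4 and 40.7 CPM (-1.22, SE 0.05, edgeR adjusted p = 1.55e-11). Sst, the somatostatin gene of dendrite-targeting cells, had medians of 169.7 and 181.1 CPM (0.02, SE 0.09, edgeR adjusted p = 0.875), with 6 of 11 mice higher in hippocampus.

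Vip, which marks cells that inhibit other inhibitory neurons, had medians of 61.1 CPM in cortex and 17.8 CPM in hippocampus (-1.84, SE 0.13), with no overlap. Nos1, neuronal nitric oxide synthase, went the other way (1.56, SE 0.08, edgeR adjusted p = 1.59e-10), with no overlap. Of 16 neuropeptide genes, a list that shares Vip, Npy and Sst with the inhibitory one, 11 were higher in cortex and 3 in hippocampus (median -0.95), or 2 in hippocampus without mice 5844 and 9631. Crh, corticotropin-releasing hormone, had -2.16 (SE 0.10) and Adcyap1, which encodes PACAP, -1.94 (SE 0.16). Nts, neurotensin, was the largest exception, with medians of 0.492 and 4.30 CPM (3.07, SE 0.29).

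Receptors of glutamate and GABA differed by subunit. Gria1, a core AMPA receptor subunit, was at 286.2, 334.8 and 373.0 CPM in cortex and 879.8, 1062 and 1294 CPM in hippocampus (log2 fold change 1.73, SE 0.06, edgeR adjusted p = 1.19e-12). Gria3 and Gria4 were lower in hippocampus (-0.46, SE 0.06, and -0.82, SE 0.08). Grin1, the obligatory NMDA receptor subunit, had medians of 625.9 and 619.8 CPM, and Grin2a had 0.60 (SE 0.06). Over the 17 tested ionotropic receptors, 9 were higher in hippocampus and 4 in cortex (median 0.20).

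Of 7 tested metabotropic receptors, 2 were higher in hippocampus, among them Grm5 (0.69, SE 0.07), and 3 in cortex, Grm8 (-1.54, SE 0.09), Grm4 (-0.96, SE 0.06) and Grm3 (-0.74, SE 0.05), with a list median of -0.08. Of 13 tested GABA-A subunits, 4 were higher in hippocampus and 7 in cortex (median -0.16). Gabra5, a subunit of extrasynaptic receptors, had medians of 61.6 and 151.8 CPM (1.39, SE 0.07, edgeR adjusted p = 1.55e-10), while Gabrd, another extrasynaptic subunit, had 69.7 and 25.7 CPM (-1.36, SE 0.07, edgeR adjusted p = 3.37e-10). Gabra3 had -1.37 (SE 0.14). HCN channels, which carry the hyperpolarization-activated current, differed little: 3 of 4 were higher in cortex, none by more than 1.5-fold, and the median was -0.25; without mice 5844 and 9631, 2 were called.

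Of 11 tested serotonin receptors, 5 were higher in hippocampus and 3 in cortex (median 0.13), against 28.4% and 24.6% of all genes, so the cortical count was near the background. Htr4, a Gs-coupled receptor, was at 1.23, 1.96 and 3.10 CPM in cortex and 11.96, 14.7 and 17.3 CPM in hippocampus (log2 fold change 2.85, SE 0.11, edgeR adjusted p = 8.57e-12). Htr1a, the main inhibitory receptor, had 1.21 (SE 0.06) and Htr5b 1.99 (SE 0.15), both without overlap. Htr2a, the receptor of classical psychedelics, was higher in cortex, at 35.6 CPM against 14.9 CPM (medians, -1.33, SE 0.11, edgeR adjusted p = 3.12e-08).

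The corticosteroid receptors differed in opposite directions. Nr3c2, the mineralocorticoid receptor, was at 31.1, 36.02 and 43.9 CPM in cortex and 126.6, 158.8 and 205.5 CPM in hippocampus (log2 fold change 2.20, SE 0.06, edgeR adjusted p = 2.19e-13). Nr3c1, the glucocorticoid receptor, was at 102.0, 110.8 and 140.0 CPM in cortex and 58.7, 76.3 and 104.4 CPM in hippocampus (-0.56, SE 0.06, edgeR adjusted p = 1.20e-06), lower in hippocampus in all 11 mice though the ranges overlapped. Per length, the mean level of Nr3c1 was higher than that of Nr3c2 in cortex, at 14.5 ± 1.37 (SD, n = 11) against 4.20 ± 0.415 RPKM (CPM per kilobase of exon), and lower in hippocampus, at 9.89 ± 1.64 against 19.3 ± 2.82 RPKM.

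Of the 11 tested genes of stress hormone signalling, 4 were higher in hippocampus and 5 in cortex (median -0.10), against 28.4% and 24.6% of all genes, and nothing is read from the hippocampal count. Fkbp5, a chaperone that dampens the glucocorticoid receptor and is induced by it, was higher in hippocampus (0.83, SE 0.06). Other genes that glucocorticoids induce were not higher there: Tsc22d3 had -0.33 (SE 0.04), Per1 -0.23 (SE 0.08, a call lost without mice 5844 and 9631) and Sgk1 -0.10 (SE 0.10, edgeR adjusted p = 0.442). The CRH receptors also divided, with Crhr1 higher in cortex (-1.40, SE 0.09) and Crhr2 in hippocampus (1.97, SE 0.26). Crhr2 was low throughout, at no more than 1.17 CPM in cortex and 7.34 CPM in hippocampus. Its highest hippocampus values were those of mice 9838 (7.34 CPM) and 9839 (6.87 CPM), which also had the highest choroid plexus levels, described below. In the fit with choroid plexus and striatal levels as terms, hippocampal calls of the stress hormone list went from 4 to 1 and cortical calls from 5 to 1. The source of the Crhr2 difference was not tested.

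Neuronal calcium sensors, small proteins that change shape on binding calcium, changed their order between the regions. Hpca, hippocalcin, was at 349.8, 504.0 and 681.4 CPM in cortex and 1170.0, 1408 and 2488 CPM in hippocampus (log2 fold change 1.59, SE 0.08, edgeR adjusted p = 6.72e-11). Vsnl1, visinin-like 1, went from a median of 755.2 to 404.4 CPM (-0.90, SE 0.06). Per length, the mean levels in cortex were 218.8 ± 24.9 RPKM (SD, n = 11) for Vsnl1, 188.5 ± 35.2 for Hpcal4 and 105.2 ± 20.9 for Hpca. Whether the first 2 differed within the same libraries was not tested. In hippocampus they were 319.3 ± 81.6 RPKM for Hpca, 178.5 ± 21.2 for Hpcal4 and 118.3 ± 21.5 for Vsnl1. Of 10 tested members, 4 were higher in hippocampus and 5 in cortex (median -0.23), and Hpcal4 had -0.07 (SE 0.07, edgeR adjusted p = 0.452).

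Immediate early genes, which neurons switch on within minutes of activity, were mostly higher in cortex in these mice. The mice had been through behavioural tests and were killed within days, not minutes, of them, and the source of the difference was not tested. Of 13 immediate early genes, 11 were higher in cortex and 1 in hippocampus, with a median of -1.13. Egr1, a zinc finger factor, was at 193.0, 259.3 and 351.7 CPM in cortex and 62.8, 82.0 and 116.5 CPM in hippocampus (log2 fold change -1.61, SE 0.07, edgeR adjusted p = 2.19e-11), with no overlap. Fos had -1.64 (SE 0.12) and was higher in cortex in all 11 mice, but its ranges overlapped, since cortex values ran from 7.56 to 42.5 CPM.

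Arc, a protein of synapses, was higher in cortex in 10 of 11 mice (-0.78, SE 0.14, edgeR adjusted p = 0.000237), and its cortex values ran from 67.2 to 360.9 CPM. Nr4a3, an orphan nuclear receptor, was the exception, at 15.4, 21.3 and 29.4 CPM in cortex and 54.4, 64.8 and 78.7 CPM in hippocampus (1.64, SE 0.10, edgeR adjusted p = 1.21e-09). It lay on the same side as its relative Nr4a2, while the third member, Nr4a1, was higher in cortex (-0.86, SE 0.09). Junb had -0.15 (SE 0.09, edgeR adjusted p = 0.201).

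**Figure D3:**
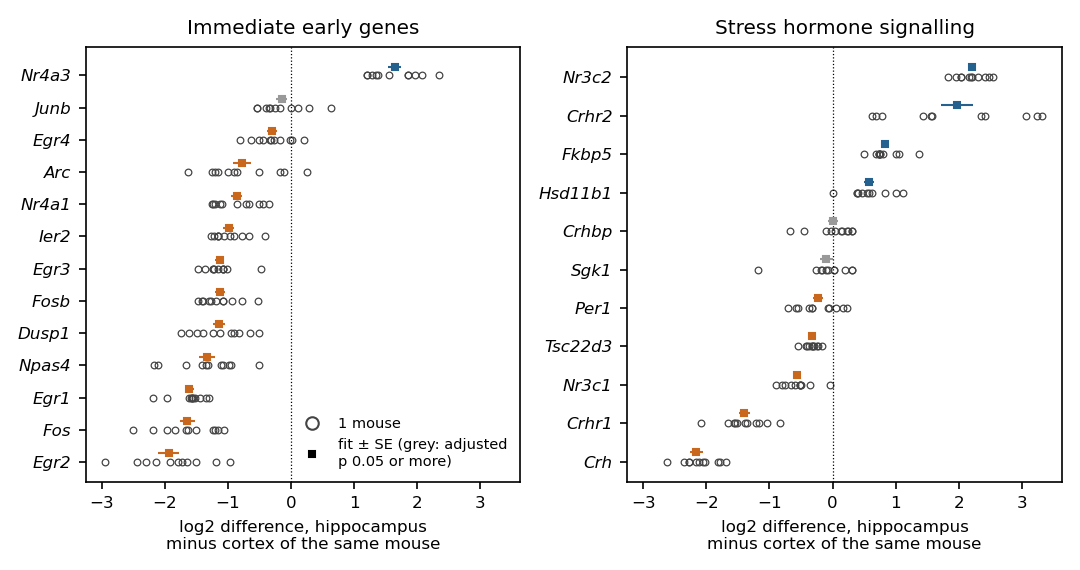
Log2 difference, hippocampus minus cortex of the same mouse, of immediate early genes (left) and of genes of stress hormone signalling (right), with 1 circle for each of 11 mice and the fitted log2 fold change ± SE as a square. All 11 circles lie right of 0 for Nr4a3, Nr3c2 and Fkbp5 and left of 0 for Egr1, Fos, Nr3c1 and Crhr1.

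Among glial genes, Gfap of astrocytes and C1ql1 of oligodendrocyte precursors passed the limit of 1.5-fold. Gfap, the intermediate filament of astrocytes, was at 81.7, 137.6 and 155.7 CPM in cortex and 309.8, 400.6 and 558.8 CPM in hippocampus (log2 fold change 1.65, SE 0.08, edgeR adjusted p = 5.50e-11). Aqp4, the water channel of astrocyte endfeet, had 0.56 (SE 0.07), but Aldoc and S100b, also of astrocytes, had -0.03 (SE 0.04) and -0.01 (SE 0.05). Of 12 astrocyte genes, 5 were higher in hippocampus and 2 in cortex (median 0.10).

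Of 12 oligodendrocyte genes, 1 (Aspa, -0.29, SE 0.11) was higher in cortex and 11 were not called (median -0.11), and without mice 5844 and 9631 the count was 2. Mbp, myelin basic protein, had medians of 2925 and 2420 CPM and ranged from 1646 to 4929 CPM in hippocampus. Oligodendrocyte precursor genes were higher in hippocampus in 5 of 6 cases (median 0.36), though Pdgfra, their growth factor receptor, had only 0.19 (SE 0.05). Microglial genes were higher in hippocampus in 8 of 14 cases, none by more than 1.5-fold (median 0.12). Csf1r, the receptor microglia need to survive, had 0.14 (SE 0.04). Of 10 endothelial genes, 5 were higher in cortex and 1 in hippocampus, none by more than 1.5-fold (median -0.10), and without mice 5844 and 9631 the cortical count was 3. All 13 mitochondrial transcripts tested had an edgeR adjusted p of 0.05 or more (median 0.01).

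Genes of neighbouring tissue, which a dissection can carry, moved with region. All 11 tested choroid plexus genes were higher in hippocampus, each by more than 1.5-fold (median 3.03). Their summed level was 10.9, 18.02 and 43.5 CPM in cortex and 37.1, 166.3 and 4422 CPM in hippocampus, and no member was at 0 in every library of a region. The sum includes Kl, so it is not a measure of choroid plexus alone. In mouse 5844, the lowest in hippocampus, Kl gave 24.2 of 37.1 CPM there and 2.15 of 17.6 CPM in cortex. Ttr, transthyretin, gave the most CPM on average, at 3.501 to 28.7 CPM in cortex and 4.36 to 3960 CPM in hippocampus, with 10 of 11 mice higher in hippocampus (log2 fold change 3.78, SE 0.87, edgeR adjusted p = 0.00161). Mice 9838 and 9839 stood apart at 3384 and 3960 CPM, and the next value was 419.1 CPM. Klotho, named above, is made in the choroid plexus as well as by neurons.

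All 6 ependymal genes were higher in hippocampus (median 1.09). Their summed level was 9.09, 12.7 and 25.9 CPM in cortex and 11.7, 30.5 and 80.4 CPM in hippocampus, and Foxj1, the regulator of motile cilia, gave the most CPM in both. Of 10 genes of meningeal fibroblasts, 7 were higher in hippocampus (median 0.77). Their summed level was 23.3, 36.1 and 68.04 CPM in cortex and 36.1, 91.9 and 124.5 CPM in hippocampus. Dcn, the proteoglycan decorin, gave the most CPM in hippocampus (mean 44.2), and Col1a2, a chain of type I collagen, in cortex (mean 8.47). Col1a2 itself had -0.03 (SE 0.14, edgeR adjusted p = 0.9), while Dcn had 2.77 (SE 0.34). Of 6 thalamic genes, 3 were higher in hippocampus (median 0.41). Prkcd, a protein kinase C, had 1.74 (SE 0.22) and gave the most CPM in hippocampus (mean 35.2), as did Slc17a6, a vesicular glutamate transporter, in cortex (mean 24.1). The summed level was 50.5, 63.8 and 80.1 CPM in cortex and 58.5, 95.1 and 183.3 CPM in hippocampus.

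Striatal genes moved toward cortex. Of 9 tested, 8 were higher in cortex (median -0.88), and the summed level was 200.9, 274.6 and 555.0 CPM in cortex and 165.2, 179.1 and 200.8 CPM in hippocampus. Drd1, the D1 dopamine receptor, had -1.28 (SE 0.18, edgeR adjusted p = 1.94e-05), and Pde10a, a phosphodiesterase, gave the most CPM, at means of 110.2 and 89.2 (-0.27, SE 0.09, a call lost without mice 5844 and 9631). The cortex of mouse 5844 was the highest for Drd1 (26.4 CPM), Adora2a (25.7 CPM) and Penk, enkephalin (133.1 CPM), against cortical medians of 10.1, 3.61 and 47.98 CPM. Of 2 tested red blood cell genes, Alas2 had -0.39 (SE 0.09, edgeR adjusted p = 0.00222) and Slc4a1, the anion exchanger, 0.16 (SE 0.22), and the list median was -0.12. The summed level of that list was 3.57, 5.85 and 113.2 CPM in cortex and 2.57, 4.53 and 66.7 CPM in hippocampus, with the most CPM from Alas2 on average. In mouse 9631 it was mostly globin: of sums of 72.4 and 64.4 CPM, Hbb-bs gave 38.2 and 31.9 CPM and Alas2 2.69 and 1.73 CPM. In none of these 6 lists was a member at 0 in every library of a region.

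A fit with the summed choroid plexus and striatal levels as further terms, chosen after seeing the data, kept far fewer calls. These levels differ between the regions, so the terms share variation with region by construction, and the fit cannot tell the tissue apart from the region. Of 254 called genes named or listed, 74 were called in the same direction, 1 (Scnn1a, -1.35, edgeR adjusted p = 0.0215) in the other, and 39 changed sign. Kl was at 1.35 (edgeR adjusted p = 0.0841) and Bmp3 at -2.21 (edgeR adjusted p = 0.0507), so both lost their call, while 11 of 12 genes in each direction kept theirs, among them Fibcd1 (4.90) and Igfn1 (-5.84). Kl belongs to the choroid plexus list, so its own level is part of that term, and nothing is read from its lost call. The same holds for every member of the choroid plexus and striatal lists, whose called genes are among the 254. Calls of dentate granule cell genes in hippocampus went from 9 to 5. Upper layer genes had 7 calls in cortex in the main fit and 6 with the terms. These 6 include Scnn1a, which the main fit called higher in hippocampus, so they are not all calls that were kept. In cortex, calls of deep layer genes went from 10 to 1 and of neuropeptides from 11 to 1. Cortical calls of immediate early genes went from 11 to 2 and of serotonin receptors from 3 to 0. Arc changed sign (0.67, edgeR adjusted p = 0.485), as did Nr4a1 (0.06) and Per1 (0.52). No glial, endothelial, ependymal, meningeal or thalamic gene was called except 1 astrocyte gene, Gfap (1.19, edgeR adjusted p = 0.0248).

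**Figure D4:**
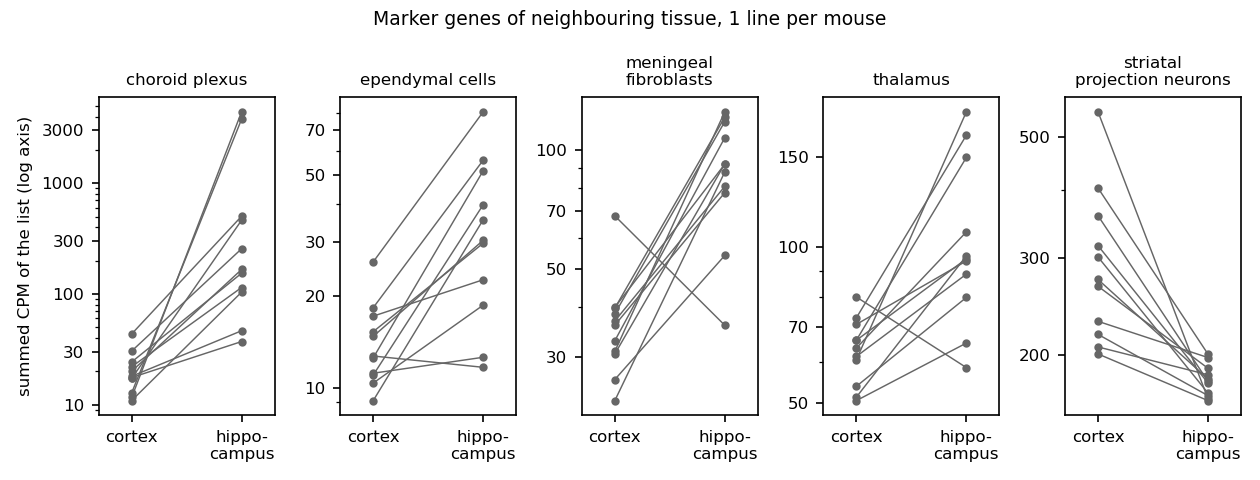
Summed CPM of the marker genes of 5 neighbouring tissues in cortex and hippocampus, on log axes with different scales, with 1 line per mouse (n = 11). The choroid plexus sum reaches 4422 CPM in hippocampus, the meningeal sum falls from cortex to hippocampus in mouse 9631 alone, and the striatal sum is lower in hippocampus in all 11 mice.

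The hippocampus libraries also differed among themselves. In mouse 9631, Lct was at 113.2 CPM against a median of 34.8, C1ql2, a secreted synaptic protein of mossy fibres, at 178.1 CPM against 41.3, and Bok, a BCL2-family protein of CA3, at 137.7 CPM against 56.3. The same library was the lowest of 11 for Dcn (5.71 CPM against a median of 56.7), Grp, gastrin-releasing peptide (4.45 against 19.7), Gabra2 (49.5 against 152.5), Htr2c (13.1 against 39.4), Etv1 (44.2 against 112.0) and Nr2f2 (8.64 against 20.3). Mouse 9644 was the second lowest for Dcn (12.2 CPM) and Etv1 (59.9 CPM) and had the second highest Bok (126.7 CPM). The hippocampus of mouse 9631 also had the highest summed ependymal level (80.4 CPM) and the lowest meningeal one (36.1 CPM). What sets these libraries apart was not tested, and the genes were singled out after their values were seen.

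The region difference was set beside that of 7 SS control mice, which share no library with it. In SS mice alone, 3721 of 17858 genes (20.8%) were higher in hippocampus and 3653 (20.5%) in cortex. Of the 1989 genes that differed by more than 1.5-fold in AA mice, 1960 were tested in SS mice, 1959 had the same direction and 1919 were also called there, while 0 were called in the opposite direction. Across the 17379 genes tested in both, Pearson's r of the log2 fold changes was 0.95, a description across genes, which are not independent replicates.

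EdgeR's test of the interaction called 0 of 19196 genes (0%) as differing between SS and AA mice in their region difference (smallest adjusted p = 0.493). 797 genes had an unadjusted p under 0.05, and DESeq2's Wald test called 3 genes. For Fibcd1 the log2 fold change was 4.23 (SE 0.11) in SS mice, and the interaction was -0.08 (SE 0.14). For Igfn1 it was -5.06 (SE 0.34), with an interaction of 0.21 (SE 0.43). The median SE of the interaction over the 24 genes was 0.17. For Npy2r the SS value was 4.54 (SE 0.08), with an interaction of 0.33 (SE 0.11), and for Cckbr -3.09 (SE 0.13), with 0.07 (SE 0.17). The 3 DESeq2 calls were Rny3, a small noncoding RNA, a gene without a symbol, and Irf2bpl, a transcriptional regulator. Irf2bpl had log2 fold changes of 0.13 (SE 0.04) in AA and -0.17 (SE 0.05) in SS mice (edgeR interaction -0.31, SE 0.07, adjusted p = 0.719). Rny3 was at no more than 1.39 CPM in any of these libraries, and the gene without a symbol at no more than 7.44 CPM.

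**Figure D5:**
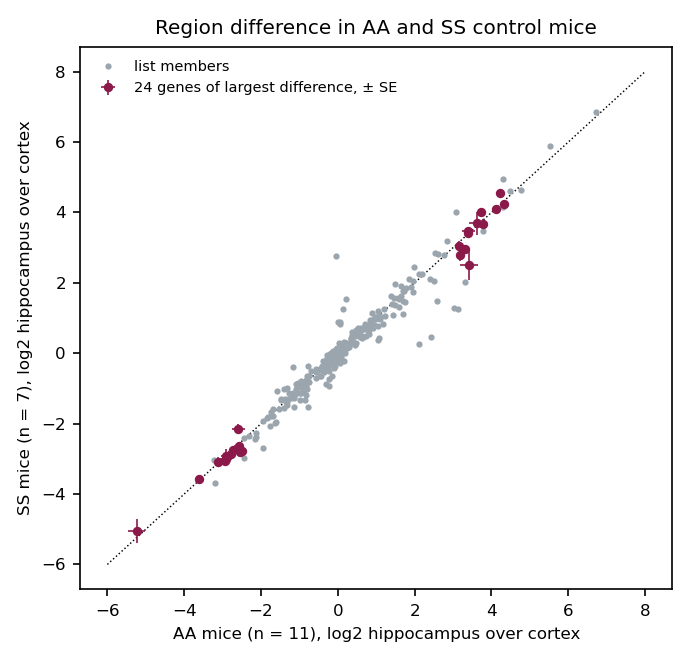
Log2 fold change, hippocampus over cortex, in AA mice (x, n = 11) and SS mice (y, n = 7) for the 24 genes of largest difference (dark, ± SE on both axes) and the tested list members (grey). The dark points run along the line of equal values from Igfn1 at lower left (-5.23 and -5.06) to Fibcd1 (4.33 and 4.23).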

How the data were processed

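Bulk poly(A) RNA was sequenced from dissected cortex and hippocampus. Per the labels, the authors aligned single reads to GRCm39 with STAR and deposited raw counts per GENCODE gene, 1 table per tissue. The strand setting of the counting is not given in the sources used here. Columns were matched to samples through their labels. 3 columns without a library of known group were left out, and lines that name no gene stayed out of library sizes and tests.

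The counts of 22 AA libraries (11 mice) were fitted in edgeR 4.0.16 (R 4.3.3) by the quasi-likelihood test with mouse and region as terms, TMM factors and filterByExpr (minimum count 10), with Benjamini-Hochberg adjustment over all genes tested. glmTreat tested against a fold of 1.5. The interaction with genotype added 14 SS libraries (7 mice). In tests on simulated counts, edgeR recovered 92.5% of genes changed by 1.5-fold and 100% of those changed by 2-fold between regions (17415 genes tested). In the interaction it recovered 70.1% and 91% (19037 genes tested). It also called 10 unchanged genes between regions and 11 in the interaction. The changed genes were drawn only from those of higher count, so these shares do not cover genes of low count. Far fewer genes were changed than were called in the data. Pairing comes from the mouse number: the correlation of both libraries of a mouse, as deviations from the region means, was 0.471 to 0.753 and over 0.1 in 11 of 11 pairs, though only 9 of 11 hippocampus libraries correlated best with the cortex of their own mouse (not 9644 and 9839). In these paired fits, p-values rest on how the hippocampus minus cortex difference varies from mouse to mouse, not on differences in level between mice.

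Named genes are the 12 of largest log2 fold change in each direction among those called by glmTreat, of mean log2 CPM of at least 3, the same direction in all 11 mice and a proper symbol, and members of 31 gene lists. Members and lists were chosen with earlier results of these data known. Alternatives were RLE size factors, no filter, no mouse block, a term for reads outside genes, subsets of mice, DESeq2 1.42.0 and, chosen after seeing the data, terms for choroid plexus and striatal levels. 18 list members did not pass the filter and were not tested, and some members are counted but not reported here by name.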

Additional observations from a re-analysis of the deposited data

Results flagged for a closer look

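In the 7 SS control mice, 2 of 14 checks for a single far value (Dixon's test at the 95% level, on 7 genes in each region) picked out a library, both for Ttr, the choroid plexus gene that encodes transthyretin. The cortex of SS mouse 9903 was at 1097 CPM, while the other 6 SS cortex libraries lay between 2.22 and 34.7 CPM. The hippocampus of SS mouse 5349 was at 2338 CPM, while the other 6 lay between 5.08 and 240.3 CPM. For normally distributed values such a check picks out about 1 in 20 groups by chance. The rate for values as skewed as these was not measured. The AA groups of 11 mice were not checked this way.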

How the results depend on the processing

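The counts of genes higher in hippocampus and in cortex stayed within 1.5 times of 4978 and 4323 under RLE size factors, no filter, a term for reads outside genes, DESeq2 and the other 8 mice only. With mice 9631, 9636 and 9644 only, they were 2052 and 2180, from fewer samples. Of the variance of log2 CPM, 14.76% lay between these 3 mice and the other 8, a part of the 52.71% between mice. What sets these 3 mice apart was not tested. With the summed choroid plexus and striatal levels as terms, an alternative chosen after seeing the data, they were 625 and 419, and past the fold limit 219 and 119; these levels differ between the regions, so by construction the terms share variation with region. Leaving out each mouse in turn gave 4493 to 4810 and 4096 to 4550 genes, and past the fold limit 983 to 1038 and 893 to 986. Without the mouse block (the unpaired fit) the counts were 3410 and 3083, and past the fold limit 912 and 797; the block left the interaction count at 0. The interaction counted 108 genes without a filter, 3 with DESeq2 and 797 at an unadjusted p under 0.05. All 24 genes of largest difference kept their call and direction in the 19 alternatives other than those terms. So did 187 of 254 called genes named or listed. With the terms Bmp3 and Kl, whose own level is part of the choroid plexus term, lost their call, and 74 of the 254 were called in the same direction. Grp (-0.05) and Pdgfra (-0.0022) changed sign, both with mice 9631, 9636 and 9644 only; the cause was not tested.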

Other observations

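Libraries of mice 5845 and 9838 stood apart from the other 9 mice in 6 of the 13 mitochondrial transcripts, in both regions. mt-Nd3 lay between 27.7 and 49.8 CPM in these 4 libraries and between 1.57 and 8.13 CPM in the other 18. mt-Nd4l lay between 30.8 and 47.3 CPM against 1.53 to 4.20 CPM, and mt-Atp8 between 38.7 and 47.6 CPM against 0.0802 to 5.02 CPM. mt-Co2 lay between 195.1 and 306.5 CPM against 17.4 to 42.1 CPM, mt-Co3 between 177.1 and 297.0 CPM against 15.4 to 38.0 CPM, and mt-Atp6 between 162.9 and 225.5 CPM against 11.7 to 33.6 CPM. The ranges of mt-Nd1, mt-Nd2, mt-Nd4, mt-Nd5, mt-Nd6, mt-Co1 and mt-Cytb overlapped those of the other mice. The highest unmapped share of cortex came from mouse 5845 (25.9%) and that of hippocampus from mouse 9838 (41.9%). No mitochondrial transcript was called between regions by edgeR.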
